A study of Mus musculus with 3 samples.

Results

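The cells described here are single-cell barcodes of lymph node stroma that carried RNA of Cr2, the complement receptor that marks follicular dendritic cells (FDCs), together with ample Malat1, a long noncoding RNA kept in the nucleus. They were chosen by their measured values: a barcode had to hold at least 200 genes, at most 10% of UMIs (unique molecular identifiers, each standing for 1 captured RNA molecule) from mt- genes and 0 UMIs of 13 genes of haematopoietic, endothelial and epithelial cells, and then at least 1 Cr2 UMI and at least 1% of its UMIs from Malat1. This selected 167 of the 2243 retained barcodes and of the 5486 deposited. The levels of Cr2, Malat1, mt- genes and the 13 genes were therefore used in the choice and are given without a test.

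The study isolated live PDPN+ CD31- CD45- TdTomato+ cells from lymph nodes of C57BL/6 mice that carry the CXCL13-TdTomato transgene, in which Cxcl13 regulatory sequence drives Cre and TdTomato, so that every library holds cells that have used the Cxcl13 promoter. The 2-IC group (2 libraries) came from mice given 2 antigen immune complexes (ICs), 7 days and 24 h before analysis, and the 1-IC group (1 library) from mice given 1 antigen IC 24 h before. All libraries thus came from immunized mice, and no library of unimmunized mice was analysed here. Per the methods of the study the samples came from independent experiments, as many as there are libraries, with lymph nodes of several mice pooled. Which experiment gave which library is not stated in the sources used here. Values given in threes always list the 2-IC libraries first, replicate 1 before replicate 2, and the 1-IC library last.

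FDCs are stromal cells of the B cell follicle that hold immune complexes on their surface through complement and Fc receptors and show them to B cells. They make CXCL13, the chemokine that draws B cells into the follicle, and depend on lymphotoxin and TNF signals that act through NF-kB. Neighbouring reticular cells build the collagen scaffold of the node, make CCL21 and CCL19 in the T cell zone, and include the Madcam1+ marginal reticular cells under the capsule.

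The libraries held 3790, 1029 and 667 barcodes with 20607903, 12788101 and 3766526 UMIs. Members numbered 110, 25 and 32, which was 7.21% (exact binomial 95% interval 5.96 to 8.62), 6.39% (4.18 to 9.29) and 9.82% (6.81 to 13.6) of retained barcodes, and these intervals overlapped. The overlap was lost with Malat1 at 5% or more, where the share was 3.87% (2.96 to 4.96) in 2-IC replicate 1 and still 9.82% (6.81 to 13.6) in the 1-IC library. It was also lost with contaminant genes allowed, where 11.6% (10.5 to 12.8) in 2-IC replicate 1 lay under 16.9% (14.3 to 19.8) and 16.4% (13.5 to 19.5) in the other libraries. The intervals cover counting error only. Their median depth was 5791.5, 13706 and 8370.5 UMIs, against 4673, 14962 and 6039.5 in the 1381, 356 and 276 Cr2-negative barcodes, so both classes were deepest in 2-IC replicate 2. Malat1 took a median of 5.34%, 11.1% and 12.1% of the UMIs of members. The 2-IC libraries shared 76 barcode sequences (2.01% and 7.39% of their barcodes), and the deeper copy of a shared barcode had a median of 52.6 times the UMIs of the shallower one. A further 2 sequences were shared between 2-IC replicate 1 and the 1-IC library, and 4 member barcodes were among the shared ones, so counts of called genes are also given without them.

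The Malat1 limit fell in a sparsely filled range. Of the 230 retained Cr2+ barcodes, 53 had under 0.1% Malat1, 10 had 0.1 to 1%, 17 had 1 to 2% and 150 had 2% or more. The 10 barcodes just under the limit, all from 2-IC replicate 1, had 31310 CPM of Cxcl13 (CPM is the count scaled so that the UMIs of a summed class add up to 1000000) and 225.6 CPM of the nuclear RNA Neat1, and the 15 just over it in the same library had 31440 and 180.2 CPM. The other 2 barcodes just over it came from 2-IC replicate 2, with a median of 18431 UMIs, and had 46610 and 488.3 CPM. The barcodes under 0.1% had 44620 CPM of Cxcl13 and 4.71 CPM of Neat1.

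The label of FDCs held for part of the members. In 52 of 110, 7 of 25 and 8 of 32 members the gate rested on exactly 1 Cr2 UMI. In 2-IC replicate 1 these cells had 13190 CPM of Cxcl13, 3.80 CPM of Coch (cochlin, a secreted matrix protein), 49.4 CPM of Madcam1 (an adhesion molecule) and 6009 CPM of Ccl21a (the T cell zone chemokine). Members of that library with 5 or more Cr2 UMIs had 45550, 532.2, 451.5 and 77.7 CPM of the same genes. In 2-IC replicate 2, members with 1 Cr2 UMI had 0 CPM of Coch, of Fcgr2b and of Fcer2a (the Fc receptors CD32b and CD23) and 12720 CPM of Cxcl13. In the 1-IC library, members with 1 Cr2 UMI already had 45790 CPM of Cxcl13 and 507.1 CPM of Madcam1. Single-UMI members of both 2-IC libraries thus held less Cxcl13 and Coch than members of the same library with 5 or more Cr2 UMIs. Cxcl13 was at 45550 and 20250 CPM in the latter. Summed, the single-UMI members had more Cxcl13 than Cr2-negative cells (6812 and 4057 CPM). In 2-IC replicate 2 that excess rested on 1 cell, with 828 Cxcl13 UMIs among 22799, and the next highest had 107. The counts of genes called are therefore also given for members with at least 2 Cr2 UMIs, which were 58, 18 and 24 cells. Members with 5 or more Cr2 UMIs were uneven too in 2-IC replicate 2. There, 1 cell with 33 Cr2 UMIs held 2 Cxcl13 UMIs among 6081, and 1 with 10 held 1688 among 28968. Another with 13 Cr2 UMIs held 89 Cxcl13, 217 Cxcl12 and 356 Dcn (decorin) UMIs among 25092. A high Cr2 count thus did not by itself settle the label in that library.

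**Figure D1:**
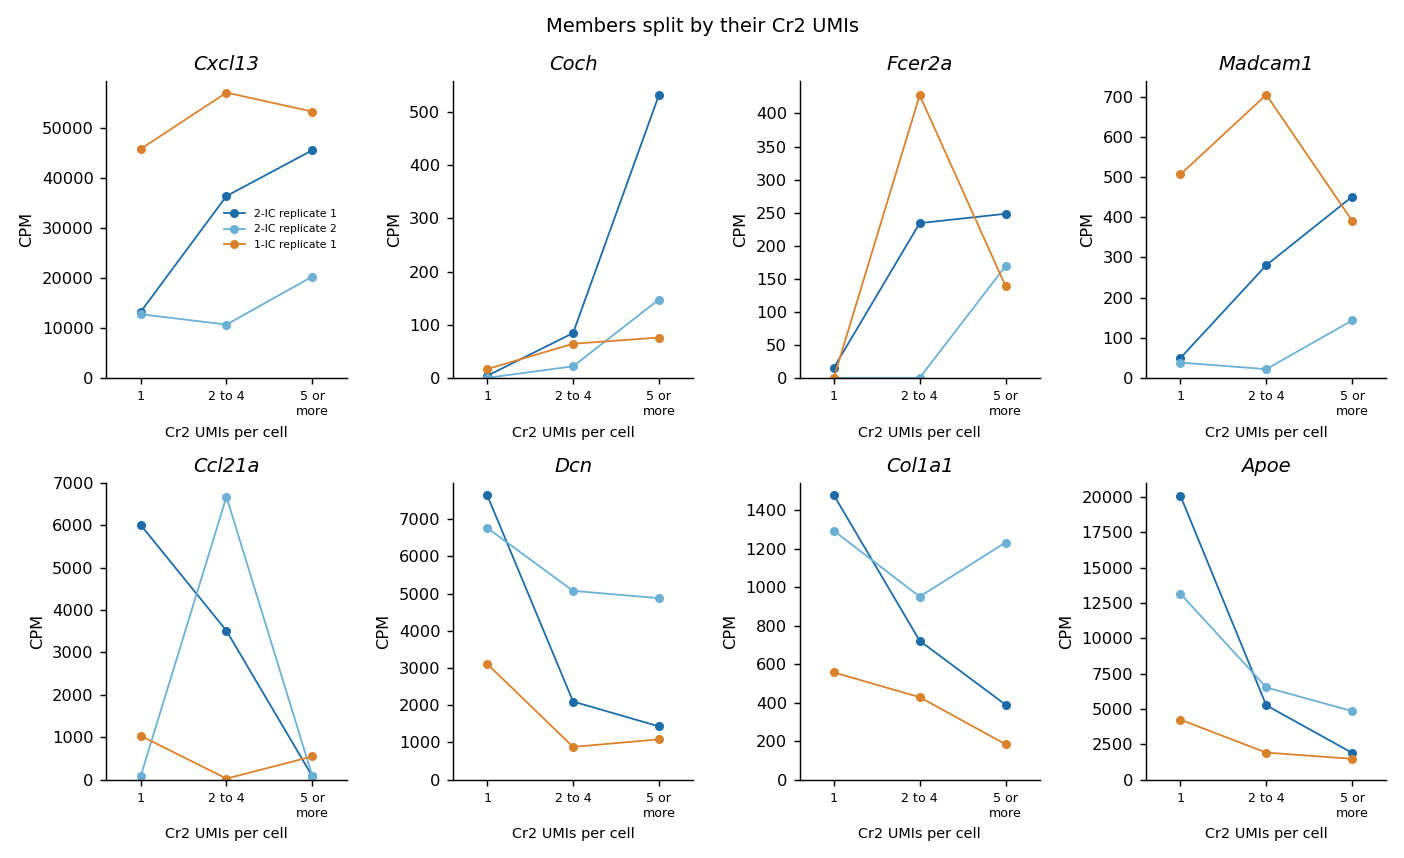
CPM (y axes, linear) of 8 genes in members split by their number of Cr2 UMIs (x axes), with 1 coloured line per library and each point a sum over the cells of that step. Coch was at or under 16.4 CPM at 1 Cr2 UMI in every library, and Apoe was highest at 1 Cr2 UMI in every library. The step of 2 to 4 UMIs in 2-IC replicate 2 holds 4 cells.

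The first comparison asked which genes set members apart from the 2013 Cr2-negative cells of the same libraries. Counts were summed per library and class and fitted with the edgeR quasi-likelihood test with the library as a block. Most of the listed FDC markers were higher in members, as were genes outside that list such as Slc1a2, while most of the listed reticular matrix genes and proteoglycans were lower. Of 9372 genes tested, 21.7% were called at an adjusted p under 0.05, 757 higher (8.08%) and 1278 lower (13.6%). The median log2 fold change of all genes tested was -0.17 with TMM scaling and 0.01 without it, and the split without TMM was 965 higher and 718 lower, so the values below are read against that shift. Without the block 644 genes were called (416 higher and 228 lower), and DESeq2 called 926 (567 higher and 359 lower). Without 2-IC replicate 1 the count was 1145, without shared barcodes 1873, and with members of at least 2 Cr2 UMIs 1945.

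Of the 16 listed FDC markers 15 were tested, of which 12 were higher, 1 was lower and 2 were not called, with a median log2 fold change of 2.03 beside -0.17 for all genes. The count was also 12 higher and 1 lower with members of at least 2 Cr2 UMIs. Cxcl13 (ENSMUSG00000023078, GRCm38 chr5:95956951-95961068, + strand) had 32070, 17330 and 52230 CPM in members and 6812, 4057 and 10710 CPM in Cr2-negative cells. The lowest member value lay above the highest Cr2-negative one, and the log2 fold change was 2.03 (SE 0.13, edgeR adjusted p = 4.67e-14). Sox9, a transcription factor of cartilage, had 316.5, 317.4 and 349.4 CPM against 51.6, 120.5 and 31.2 (log2 fold change 2.23, SE 0.23, edgeR adjusted p = 5.76e-09). Clu, the secreted chaperone clusterin, had 16100, 9088 and 23710 CPM against 5120, 4443 and 6681 (log2 fold change 1.33, SE 0.15, edgeR adjusted p = 1.34e-08), a call lost without the library block. Neither gene overlapped between the classes. Coch (GRCm38 chr12:51593341-51605771, + strand) was uneven among libraries, with 266.8, 98.3 and 60.1 CPM in members against 13.7, 6.47 and 17.1 (log2 fold change 3.52, SE 0.28, edgeR adjusted p = 7.43e-12). Mfge8, which bridges apoptotic cells to phagocytes, had 13810, 7798 and 12830 CPM against 4018, 2453 and 3618. Vcam1, an integrin ligand, differed less, with a log2 fold change of 0.59 (SE 0.16, edgeR adjusted p = 0.00754), and was not called after thinning each cell to 2000 UMIs (edgeR adjusted p = 0.29), without the block, without 2-IC replicate 1 or without the 1-IC library. Icam1, another integrin ligand, and Ltbr, the lymphotoxin beta receptor, were not called (log2 fold changes -0.05 and -0.44). Tnfsf13b, which encodes the B cell survival factor BAFF, was the marker that was lower, with 117.8, 160.1 and 101.4 CPM against 205.3, 205.6 and 165.8 (log2 fold change -0.80, SE 0.19, edgeR adjusted p = 0.0019). That call was lost with DESeq2 (log2 fold change -0.66, adjusted p = 0.103), with thinning (edgeR adjusted p = 0.0511), without the library block and without 2-IC replicate 1.

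**Figure D2:**
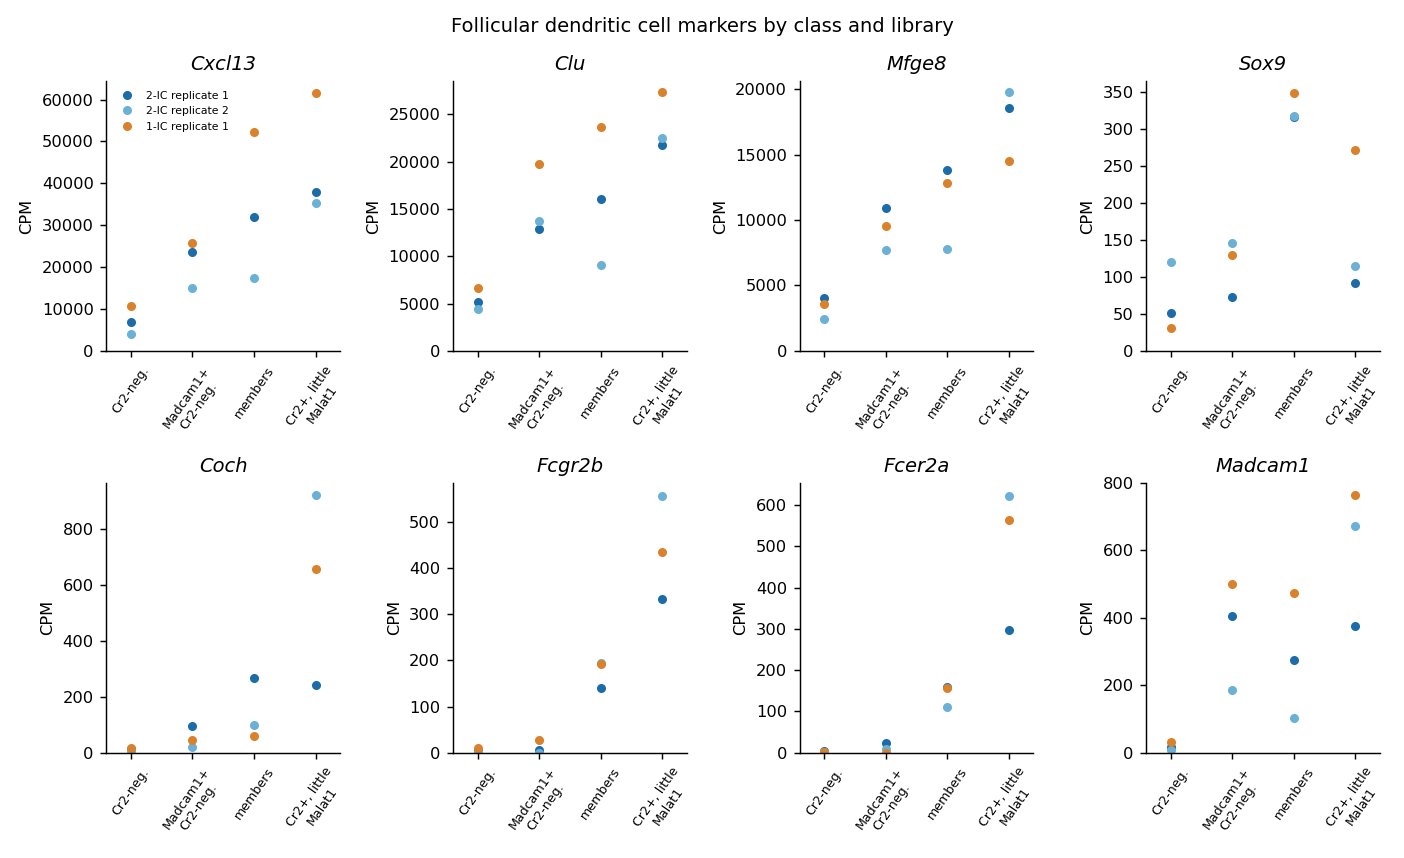
CPM (y axes, linear) of 8 FDC markers in 4 classes of barcodes (x axes), with 1 coloured point per library. Cxcl13 in members (17330 to 52230 CPM) lies above Cr2-negative cells (4057 to 10710 CPM) in every library, and Coch, Fcgr2b and Fcer2a are highest in Cr2+ barcodes with little Malat1 in all libraries but 2-IC replicate 1 for Coch.

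The Fc receptors of immune complex binding stood far apart. Fcgr2b, the inhibitory IgG receptor, had 140.5, 193.8 and 191.6 CPM in members against 5.07, 1.33 and 9.41 CPM (log2 fold change 5.07, SE 0.29, edgeR adjusted p = 3.84e-15). Fcer2a, the low-affinity IgE receptor, had 159.0, 109.6 and 157.8 CPM against 3.87, 1.71 and 0.588 (log2 fold change 5.59, SE 0.29, edgeR adjusted p = 3.46e-16). Neither was found in all members: Fcgr2b had a UMI in 36.4%, 40.0% and 53.1% of them and Fcer2a in 28.2%, 24.0% and 28.1%, against at most 2.90% and 1.97% of Cr2-negative cells. With each cell thinned to 2000 UMIs, which left out 22 members and 286 Cr2-negative cells, the means were 24.8% ± 7.47 (SD, n = 3 libraries) for Fcgr2b and 11.6% ± 6.93 for Fcer2a, against 1.12% ± 0.176 and 0.444% ± 0.517. Fcgrt, the neonatal Fc receptor that recycles IgG, was lower in members (log2 fold change -1.16, SE 0.20).

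The promoters of 3 markers that were higher in members, Cxcl13, Madcam1 and Fcgr2b, are shown because each holds the letters GGGANNNNCC, a loose form of the NF-kB site. Sequences are those of RefSeq on GRCm38.p6, written 5′ to 3′ on the strand of the gene, with capitals for matches to GGGANNNNCC or to TATAAA on either strand.
Cxcl13, chr5:95956689-95956988, + strand: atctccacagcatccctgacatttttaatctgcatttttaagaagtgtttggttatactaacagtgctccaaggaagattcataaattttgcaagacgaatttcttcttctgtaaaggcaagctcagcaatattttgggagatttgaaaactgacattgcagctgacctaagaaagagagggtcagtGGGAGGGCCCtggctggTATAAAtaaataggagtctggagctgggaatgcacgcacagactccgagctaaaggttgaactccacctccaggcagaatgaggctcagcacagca
Madcam1, chr10:79664309-79664608, + strand: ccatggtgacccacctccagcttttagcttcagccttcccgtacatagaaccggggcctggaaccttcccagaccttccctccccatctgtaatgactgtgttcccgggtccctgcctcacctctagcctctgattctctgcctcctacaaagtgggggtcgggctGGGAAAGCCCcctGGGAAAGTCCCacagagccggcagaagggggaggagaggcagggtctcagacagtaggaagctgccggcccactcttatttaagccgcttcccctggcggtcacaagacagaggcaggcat
Fcgr2b, chr1:170976022-170976321, - strand: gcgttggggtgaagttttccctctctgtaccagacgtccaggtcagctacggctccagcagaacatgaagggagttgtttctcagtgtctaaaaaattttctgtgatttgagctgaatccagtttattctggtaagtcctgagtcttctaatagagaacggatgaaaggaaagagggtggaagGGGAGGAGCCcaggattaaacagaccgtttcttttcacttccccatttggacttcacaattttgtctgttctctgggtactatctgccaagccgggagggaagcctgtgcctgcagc
The Madcam1 promoter had 3 matches to GGGANNNNCC over both strands, some of which overlap, and that of Cxcl13 had 1 match to each motif. Cr2 and the listed markers had 15 promoters of 12 genes in the table, of which 4 promoters held GGGANNNNCC and 5 held TATAAA, while 20.7% and 13.6% of all 32851 promoters did. A match is a description of letters and not of a bound site.

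Among genes outside the marker list, Slc1a2 (GRCm38 chr2:102658659-102790784, + strand), a glutamate transporter known from astrocytes, had 279.6, 224.7 and 251.7 CPM in members against 4.14, 1.90 and 5.88, with no overlap. Its log2 fold change was 5.96 (SE 0.24, edgeR adjusted p = 1.21e-18). Gcnt1, an enzyme that builds branched O-glycans, had a log2 fold change of 5.19 (SE 0.25) and Syt1, a calcium sensor of vesicle release, one of 5.12 (SE 0.24). Serpina1e, a secreted protease inhibitor of a family of near-identical copies whose reads may be split, rose by 4.52, and Fabp5, which carries fatty acids, rose by 4.42 on the same scale. Anxa3, Cd200, Gda, Madcam1 and Il4i1 completed the 12 leading genes among those with at least 100 CPM in every library of members, with log2 fold changes of 4.11, 4.04, 3.78, 3.68 and 3.64. All of them were higher in members in each of the 3 libraries, as the naming rule asks. Genes under that limit of abundance had large changes too: A230065H16Rik had 177.4, 44.95 and 465.8 CPM in members against 2.40, 0.381 and 7.64 (log2 fold change 5.95, SE 0.25, edgeR adjusted p = 4.11e-18).

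Among genes with at least 100 CPM in Cr2-negative cells of every library, the 12 with the largest fall included the chemokines Ccl21a, Ccl2, Ccl7 and Cxcl1. Ccl21a (GRCm38 chr4:42772860-42773993, - strand) had 2814, 941.1 and 563.5 CPM in members against 4781, 4793 and 7340 (log2 fold change -2.41, SE 0.28, edgeR adjusted p = 3.04e-08), and it belongs to a family of near-identical copies. DESeq2 did not call it (log2 fold change -2.31, SE 0.89, adjusted p = 0.0834). Ccl2, which draws monocytes, had 86.6, 59.0 and 15.03 CPM against 358.5, 689.2 and 132.9 (log2 fold change -2.91, SE 0.25). Ccl7 had the largest fall of the 12 (-2.96). Col6a3 (-2.72), Tagln (-2.41) and Ifitm1 (-2.39) were also among them, and Mustn1, Ptn, Pltp, Aebp1, Gm12407 and Cxcl1 ranged from -2.28 to -2.11. DESeq2 did not call Cxcl1, Ptn and Pltp either (adjusted p = 0.135, 0.0818 and 0.0549), and Cxcl1 was not called without the block.

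**Figure D3:**
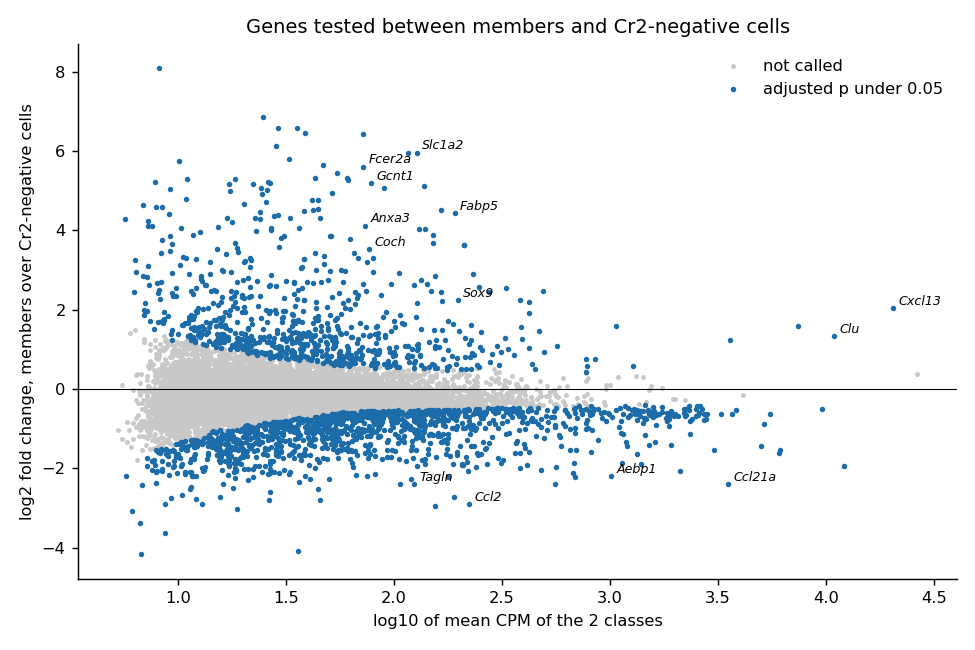
Each point is 1 of the 9372 genes tested, with the log10 of its mean CPM over both classes (x axis) and its log2 fold change of members over Cr2-negative cells (y axis), blue where the adjusted p is under 0.05. Slc1a2 (5.96) and Fcer2a (5.59) lie high, Cxcl13 (2.03) is the most abundant labelled gene, and Ccl21a (-2.41) lies low.

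Lists of genes were described by their counts, beside 8.08% higher and 13.6% lower over all genes tested. Of 27 tested chemokines and B cell factors 4 were higher and 18 lower. Of the lower ones DESeq2 did not call Cxcl2, Cxcl9, Cxcl16, Ccl11 and Csf1 (adjusted p = 0.277, 0.425, 0.336, 0.152 and 0.385). It did not call Ccl21a, Cxcl1, Tnfsf13b and Enpp2 either. The higher ones were Cxcl13, Lpar1, S1pr3 and Sphk1, of which Lpar1 was not called with thinning (edgeR adjusted p = 0.113), without the block or without 2-IC replicate 1. S1pr3, a sphingosine-1-phosphate receptor, had 598.9, 761.3 and 766.4 CPM against 201.5, 327.3 and 172.8. The lower ones included Cxcl12, which had 3622, 4203 and 1518 CPM against 7839, 6638 and 6244 (log2 fold change -1.44), and Ccl19 (log2 fold change -1.63), Il33 (-1.58), Il7 (-1.18) and Enpp2, autotaxin, the enzyme that makes lysophosphatidic acid (-0.60). The call of Enpp2 was lost without TMM scaling (edgeR adjusted p = 0.0533), with thinning (0.0692) and with DESeq2 (adjusted p = 0.13). Without the block Cxcl12 and Enpp2 were not called, and with members of at least 2 Cr2 UMIs the log2 fold change of Cxcl12 was -2.16. Of 13 tested complement genes 4 were higher and 8 lower. The regulators Cd55 and Cr1l were higher (log2 fold changes 1.17 and 1.19; Cd55 was not called with thinning, edgeR adjusted p = 0.0782), while C3, the central component, had 4464, 4790 and 1698 CPM against 9625, 8977 and 7390 (log2 fold change -1.54, SE 0.17), and -2.27 with members of at least 2 Cr2 UMIs. C4b, Serping1 and Vtn were lower too, and the calls of C3 and C4b were lost without the block.

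Of 21 tested genes of lymphotoxin, TNF and NF-kB signalling 6 were higher, 2 lower and 13 not called. Tnfrsf21, a death receptor, had 132.0, 84.3 and 105.2 CPM against 12.1, 12.8 and 11.8 (log2 fold change 2.97, SE 0.24). Traf1 and Tnfaip2 (2.30 and 2.25), Tnfaip3 (1.14) and Relb, a subunit of the noncanonical pathway (0.84), were also higher, and the call of Relb was lost with thinning (edgeR adjusted p = 0.15) and without the block. With members of at least 2 Cr2 UMIs 5 were higher and the lower calls were lost. Of the 6 tested genes of the Sox9 and cartilage list 4 were higher (Sox9, Sox5, Cilp and Coch) and 2 lower, and Cilp, a cartilage matrix protein, had 475.5, 320.2 and 390.7 CPM against 27.8, 21.3 and 38.8.

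Of 26 tested matrix genes of reticular cells 20 were lower and 2 (Col14a1 and Lamb1) higher, with a median log2 fold change of -1.21. Col1a1, a chain of collagen I, had 845.9, 1208 and 311.8 CPM against 1760, 1733 and 1262. Of 13 tested proteoglycans 12 were lower, among them Dcn, decorin, with 3852, 5321 and 1510 CPM against 9285, 9145 and 7326. Of 21 immediate early and stress genes 17 were lower and 2 (Klf6 and Hspa1b) higher. Fos had 4327, 4138 and 3329 CPM against 7116, 5287 and 6821. Of 16 MHC class I genes 7 were lower, but without TMM scaling 1 was lower. Of 24 oxidative phosphorylation genes 4 were lower, while edgeR without TMM scaling called 0 of them (2 at an unadjusted p under 0.05) and DESeq2 called 0 (1 at an unadjusted p under 0.05). Adhesion genes were mixed, with 7 higher and 4 lower of 21. Without the block Col1a1, Dcn and Fos were not called. With members of at least 2 Cr2 UMIs, 18 of the matrix genes and 11 of the proteoglycans were lower, with median log2 fold changes of -1.67 (beside -1.21) and -2.30 (beside -1.41).

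**Figure D4:**
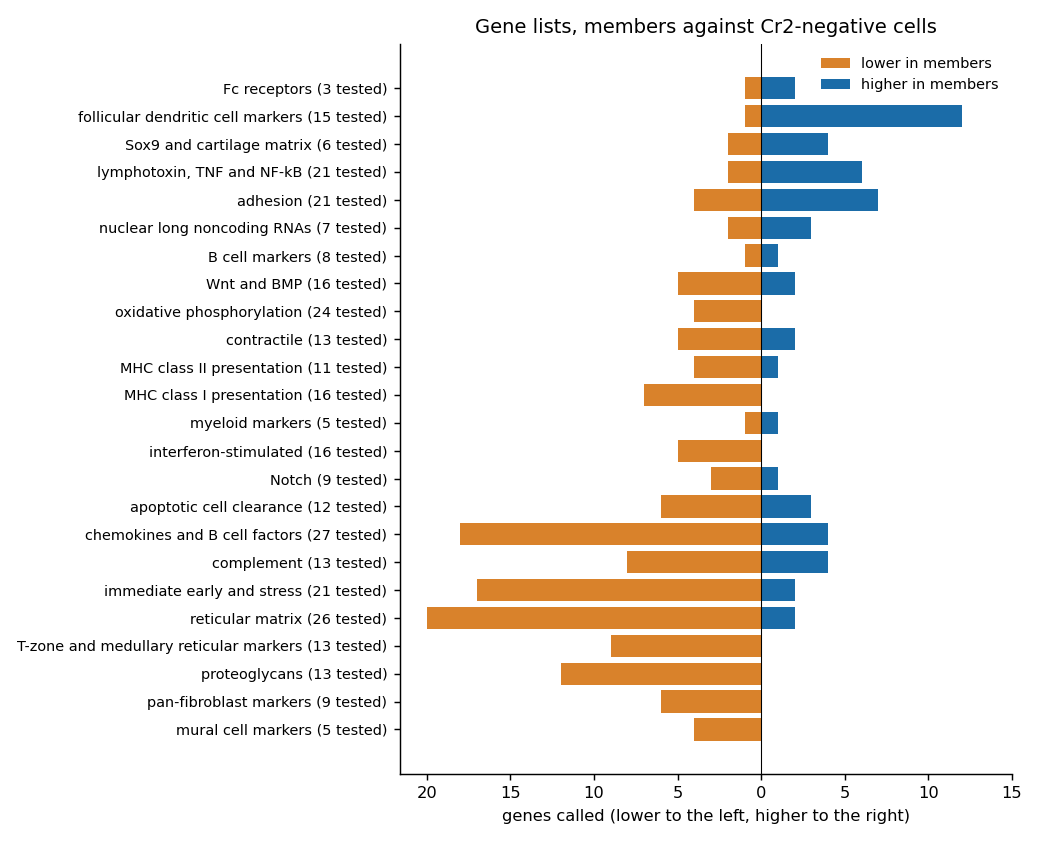
Numbers of genes called lower (orange, to the left) and higher (blue, to the right) in members than in Cr2-negative cells (x axis) for each list with at least 3 genes tested (y axis), ordered by median log2 fold change. FDC markers have 12 higher of 15, and reticular matrix has 20 lower of 26.

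Among markers of other cell types, Blnk and Aif1 were called higher in members than in Cr2-negative cells, and Igkc, Tyrobp, Plvap and 4 mural cell genes (Notch3, Kcnj8, Abcc9 and Pdgfrb) lower, of which Igkc was not called with thinning (edgeR adjusted p = 0.132), and Igkc and Abcc9 not without the block. Blnk, an adaptor of B cell receptor signalling, had 95.1, 109.6 and 120.2 CPM in members against 30.3, 19.8 and 45.3 (log2 fold change 1.65, SE 0.22, edgeR adjusted p = 4.16e-07), a call lost with thinning (edgeR adjusted p = 0.0922). Aif1, an actin-binding protein of macrophages, had 217.2, 106.7 and 229.2 CPM against 111.3, 46.5 and 186.9 (log2 fold change 0.63, SE 0.19, edgeR adjusted p = 0.0155), a call lost with thinning (edgeR adjusted p = 0.201), with DESeq2 (adjusted p = 0.0511), without the block and without either 2-IC library. The B cell list summed to 1233, 668.6 and 901.6 CPM in members and 1570, 639.7 and 1143 CPM in Cr2-negative cells, its most abundant gene was Cd74, and Pax5 was at 0 in every library of members. The T cell list summed to 59.6, 11.2 and 37.6 CPM against 22.8, 8.38 and 22.9, higher in members in every library. It was led by Ltb (31.2, 5.62 and 33.8 CPM in members), with Cd4 at 0 in members. Of this list 1 gene was tested and was not called, and 1 was called higher with members of at least 2 Cr2 UMIs. The myeloid list summed to 404.5, 289.3 and 383.2 CPM against 346.8, 159.3 and 499.7, higher in members in both 2-IC libraries, led by Aif1, with C1qb, Itgam and Itgax at 0 in members. The endothelial list, led by Plvap, summed to 63.9, 39.3 and 48.8 CPM against 117.2, 97.5 and 101.7, with Kdr and Tie1 at 0. The mural cell list, led by Rgs5, summed to 1152, 1104 and 695 CPM against 1533, 1726 and 1083, with Higd1b at 0. Their part in the differences above was not tested.

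The second comparison set members against the 50, 16 and 17 Cr2-negative cells with at least 1 Madcam1 UMI. Slc1a2 and 2 of the 3 tested Fc receptors, Fcgr2b and Fcer2a, were higher in members, while Fcgrt (log2 fold change -0.26), Cxcl13 and Clu were not called. Of 4491 genes tested 4.45% were called, 141 higher (3.14%) and 59 lower (1.31%), and the split without TMM scaling was 132 and 96. Without the block 57 genes were called, without shared barcodes 205 and with members of at least 2 Cr2 UMIs 351. Cxcl13 had 23630, 15070 and 25820 CPM in the Madcam1+ cells, a log2 fold change of 0.65 in members over them (SE 0.39, edgeR adjusted p = 0.534). Fcgr2b (log2 fold change 4.48, SE 0.47, edgeR adjusted p = 6.77e-06), Slc1a2 (5.13), Gda (4.03), Fcer2a (3.49) and Cd200 (2.80) were higher, as were Sox9 (1.63) and Coch (1.58), although DESeq2 did not call Coch (adjusted p = 0.167). Tnfsf11, which encodes RANKL, had 72.4, 56.2 and 78.9 CPM in members against 450.6, 397.4 and 417.0 (log2 fold change -2.54, SE 0.24, edgeR adjusted p = 2.96e-06), with no overlap. Wif1, a Wnt inhibitor, and Pdgfrb, a growth factor receptor of reticular and mural cells, were lower (-2.92 and -1.97). Of 4 tested mural cell genes 3 were lower (Kcnj8, Abcc9 and Pdgfrb). The mural cell list summed to 1152, 1104 and 695 CPM against 1799, 1865 and 908.1, and its part in the differences was not tested. Of 12 tested contractile genes 4 were lower (Acta2, Tagln, Myl9 and Tpm2) and 1 (Pdlim3) higher. Of 20 tested matrix genes 4 were lower and 2 higher, and of 8 tested proteoglycans 0 were called. Of 16 MHC class I genes 1, H2-D1, was called, and it was higher in members (log2 fold change 0.81, SE 0.22, edgeR adjusted p = 0.0419). That call was lost without shared barcodes and with DESeq2 (adjusted p = 0.0511). H2-K1 was called higher without TMM scaling (edgeR adjusted p = 0.00725), with members of at least 2 Cr2 UMIs (0.014) and with thinning (0.00265).

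The third comparison set members against the 35, 10 and 18 Cr2+ barcodes with under 1% Malat1. Neat1 and Kcnq1ot1 were higher in members, and the Fc receptor Fcer2a was lower. The barcodes with little Malat1 were shallower, with a median of 3368, 5774 and 3207 UMIs against 5791.5, 13706 and 8370.5 in members. They also held more of the B cell list (3431, 1279 and 1654 CPM against 1233, 668.6 and 901.6) and of the myeloid list (888, 623.3 and 1345 CPM against 404.5, 289.3 and 383.2), each led by the same gene as in members, Cd74 and Aif1. Of the B cell list Cd22 and Cd83, and of the myeloid list Itgax, were at 0 there. With each cell thinned to 2000 UMIs, 177 of 740 genes tested were called. The log2 fold changes were then 4.50 for Neat1, 5.05 for Ccl21a and -1.31 for Fcer2a (edgeR adjusted p = 0.00235, 8.75e-05 and 0.0256). The part of the B cell and myeloid markers in the differences was not tested. Of 3201 genes tested 5.25% were called, 106 higher (3.31%) and 62 lower (1.94%). Without TMM scaling the split was 166 higher and 141 lower. The count was 18 without 2-IC replicate 2 (5 higher and 13 lower) and 18 without the 1-IC library (6 higher and 12 lower). It was 369 without 2-IC replicate 1, 239 without shared barcodes and 370 with members of at least 2 Cr2 UMIs. Of 14 tested FDC markers 1 was called, and it was lower: Fcer2a had 159.0, 109.6 and 157.8 CPM in members against 298.4, 623.3 and 563.4 (log2 fold change -1.52, SE 0.32, edgeR adjusted p = 0.0433). DESeq2 did not call it (adjusted p = 0.0628), and it was not called without 2-IC replicate 2 or without the 1-IC library. Without TMM scaling 3 markers were lower, Fcer2a, Fcgr2b (edgeR adjusted p = 0.0255) and Cd200 (0.0498), and with members of at least 2 Cr2 UMIs Sox9 was higher (log2 fold change 1.56, edgeR adjusted p = 0.0104). With thinning Sox9 was higher too, and Coch and Prnp were lower beside Fcer2a. Cxcl13 had 37900, 35200 and 61540 CPM in the barcodes with little Malat1 and was not called (log2 fold change -0.29). Of 4 tested nuclear long noncoding RNAs 2 were higher in members, Kcnq1ot1 and Neat1, while Gas5 (log2 fold change -0.36) and Xist were not called. Xist had 601.8, 1837 and 732.6 CPM in members against 291.2, 0 and 0 (log2 fold change 3.53, SE 1.06, edgeR adjusted p = 0.0802), and it was called without TMM scaling (edgeR adjusted p = 0.0438), with thinning (0.0058) and with members of at least 2 Cr2 UMIs (0.0038). The classes were split on Malat1, itself a nuclear RNA. Kcnq1ot1 had 92.3, 401.7 and 202.9 CPM in members and 0 of 256763 UMIs over the barcodes with little Malat1. A floor of 3 counts over that group is 11.7 CPM. Members pooled over libraries had 197.5 CPM, at least 16.9-fold above that floor, and this bound does not hold for each library alone. Neat1 had 415.8, 1020 and 281.8 CPM against 78.1, 0 and 0 (log2 fold change 3.99, SE 0.77). Gm37376, also at 0 UMIs there, was at least 19.2-fold higher with members pooled over libraries, not in each library alone. It lies on the other strand within the Malat1 gene (GRCm38 chr19:5801941-5802393 within chr19:5795690-5802672), the gene that defined the classes. Ccl21a had 2814, 941.1 and 563.5 CPM in members against 177.6, 82.0 and 18.2 (log2 fold change 4.10, SE 0.31, edgeR adjusted p = 0.00185). Members with 5 or more Cr2 UMIs had 77.7, 86.7 and 543.3 CPM of Ccl21a. In 2-IC replicate 1 that lay under the barcodes with little Malat1. In the 2-IC libraries the difference thus rested on members with fewer Cr2 UMIs. It also rested on few cells in 2-IC replicate 2, where 2 members held 182 and 125 Ccl21a UMIs and the others at most 7. In the 1-IC library 2 members held 85 and 62, and the others at most 1. Gm42031, Gm43305, Cd52 and A230065H16Rik were lower (-4.11, -3.72, -2.92 and -2.76), and H2-Eb1, an MHC class II chain, had 82.3, 42.1 and 63.9 CPM against 923.5, 229.6 and 290.8. Immediate early and stress genes summed to 23930, 23540 and 17810 CPM in members against 17150, 1247 and 1926. Of 19 tested 3 were higher (Klf6, Hspa1a and Hspa1b), and 15 of 16 tested with members of at least 2 Cr2 UMIs.

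Members varied among themselves more than counting error gives. Over 784 genes with at least 1 UMI per member on average in every library, the variance was divided by that expected from counting. At equal relative spread this ratio is larger for more abundant genes, so its ranking also follows abundance. The ratio for Cxcl13 was 125.9, 317.0 and 138.9, that for Ccl21a 170.5, 132.3 and 58.7, and those for Apoe, Dcn, Clu, Cxcl12 and Mfge8 averaged 105.0, 59.0, 58.9, 44.5 and 41.8 over libraries. Gm42418 ranked first, with ratios of 106.4, 3028 and 524.2, and Mir6236 was also among the first 10. Both were unevenly spread over libraries, with Gm42418 at 9416, 63120 and 24820 CPM in members. Malat1, used in the gate, ranked second. Ccl21a had a UMI in 60.0%, 56.0% and 15.6% of members, against 64.3%, 67.4% and 47.1% of Cr2-negative cells.

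Finally, members were compared between libraries, without a test because the 1-IC group is 1 library. Among genes that reached 50 CPM in at least one of the paired libraries, 22% were at least 2-fold apart between the 2-IC libraries, 12.1% between 2-IC replicate 1 and the 1-IC library, and 30.6% between 2-IC replicate 2 and the 1-IC library. Without shared barcodes these shares were 26.1%, 12.1% and 33.5%, and with cells thinned to 2000 UMIs 46.9%, 34.2% and 56.1%. The share within the 2-IC group thus lay between the shares that involve the 1-IC library. The groups follow the titles of the libraries, with which the short labels of the 2-IC libraries conflict. The same shares in the more numerous Cr2-negative cells were 5.82%, 1.63% and 11.3%. Relative to both 2-IC libraries, 61 of 4026 genes (1.52%) were at least 2-fold higher in 1-IC members and 168 (4.17%) at least 2-fold lower. Cxcl9, an interferon-induced chemokine, had 46.8, 11.2 and 330.6 CPM, and Isg15 had 12.8, 28.1 and 135.2 CPM. The list of interferon-stimulated genes summed to 2508, 1545 and 2619 CPM, so the 1-IC value lay near that of 2-IC replicate 1. Among those lower, Cxcl1 had 491.1, 455.1 and 22.5 CPM and Lum, lumican, 133.4, 320.2 and 3.76 CPM.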

How the data were processed

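The authors sequenced sorted cells with the 10x Genomics Chromium 3' kit, aligned reads with Cell Ranger to GRCm38 and deposited whole-number UMI counts per gene and barcode, without normalization. Per the methods each independent experiment pooled lymph nodes of several mice. Short labels of the 2-IC libraries (Biotin24h for replicate 1 and Biotin7d for replicate 2) conflict with their titles, and titles set the groups. Counts were summed per library and class, since cells are not replicates, scaled to CPM and fitted with edgeR 4.0.16 (R 4.3.3, TMM, filterByExpr, quasi-likelihood test, library as block because classes share a suspension, Benjamini-Hochberg adjusted p under 0.05). Genes used in the gate were left out of the test. DESeq2 1.42.0, other gates, thinning to 2000 UMIs and leaving out each library were alternatives. The fit was tested on simulated data. Scrublet (scanpy 1.11.5) called 13 of 5486 barcodes and has not worked here, so doublets were not removed. Named genes were the marker list and the leading called genes of at least 100 CPM with 1 direction in all libraries. They included the most abundant genes of each list, called genes of 4 lists and the 10 with the largest variance over counting variance. The members and lists were chosen with earlier results of these data known. Gene coordinates are from GENCODE M21.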

Additional observations from a re-analysis of the deposited data

Results flagged for a closer look

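In 7 named genes both 2-IC libraries differed one way between members and Cr2-negative cells and the 1-IC library the other way, and the difference between groups was not tested. The 1-IC members lay below the Cr2-negative cells by CPM differences of -252.5 for Cd74, -50.6 for Cd52, -48.9 for Mylk and -18.1 for Ctss, where 2-IC members lay above them. They lay above by 70.2 CPM for Cxcl9, 26.1 CPM for Wif1 and 8.14 CPM for Sema5a, where 2-IC members lay below.

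A signal also lay outside the comparisons: 427 of the 594 Cr2+ barcodes with ample Malat1 that passed the quality limits were removed for a contaminant gene, 398 of them with Cd79a or Cd79b and 325 with Ptprc. Their sums held 10320, 6153 and 7261 CPM of Cxcl13 and 8153, 6935 and 15850 CPM of Cd74 in the 2-IC libraries (replicate 1, then 2) and the 1-IC one, against 32070, 17330 and 52230 CPM and 600.4, 314.6 and 687.5 CPM in members.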

How the results depend on the processing

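Of the 140 named genes tested against Cr2-negative cells 111 were called, and 1 of these, H2-Eb1, changed sign under any alternative, as did 15 that were not called. The numbers of genes called against Cr2-negative cells, Madcam1+ cells and barcodes with little Malat1 (2035, 200 and 168) ranged from 1145 to 1719, from 137 to 229 and from 18 to 369 when 1 library was left out. DESeq2 called 926 and 76 in the first and second comparison. Thinning gave 660 and 44, where fewer genes were tested (4792 and 697, beside 9372 and 4491). The fit with no replicate block, that is without pairing the classes of a library, called 644 and 57, and 49 of the named genes lost their call. Keeping barcodes with contaminant genes gave 819 in the second and 53 in the third, and Cr2 at 2 UMIs or more gave 351 and 370. In the third, no TMM gave 307 and no low-count filter 563. The share of members in 2-IC replicate 1 was 3.80% with Cr2 at 2 UMIs or more, 3.87% with Malat1 at 5% or more, 4.44% with thinning and 11.6% with contaminant genes allowed, which also gave 16.9% in the other 2-IC library and 16.4% for 1-IC. Genes at least 2-fold apart between libraries (833, 420 and 1173) numbered 169, 74 and 254 at 200 CPM, where fewer genes were compared (774, 725 and 772) and the shares were 21.8%, 10.2% and 32.9%, beside 22.0%, 12.1% and 30.6%. With thinning they numbered 1949, 1444 and 2593 (46.9%, 34.2% and 56.1%). The cause of the other shifts was not tested. Removing Scrublet doublets, none of which was a member, left every count as it was. Leaving out shared barcodes was chosen after seeing the data.

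The following log2 fold changes took the other sign. With barcodes holding contaminant genes kept the values were Cd52 0.98, Cd74 1.23, Gm42418 -0.16, H2-Eb1 1.05, H2-K1 -0.09, Id2 -0.46, Mir6236 -0.26. With the Malat1 gate in both classes the values were Cd52 0.41, Cd74 0.06, Id2 -0.01, Lyz2 0.9. With cells thinned to 2000 UMIs the values were Cd63 -0.05, Ctss -0.38, H2-K1 -0.17, Id2 -0.07. Without TMM scaling the values were Cd74 0.04, Cd81 0.04, Icam1 0.13, Mylk 0.01, Nfkbia 0.14, Rgs5 0.14. With DESeq2 the values were Cd74 0.01, Cd81 0.01, Icam1 0.1, Nfkbia 0.11, Rgs5 0.1. With Malat1 at 5% or more the values were H2-K1 -0.09, Id2 -0.12, Rgs5 0.06, Wif1 0.1. Without shared barcodes the values were Id2 -0.13, Nfkbia 0. With Cr2 at 2 UMIs or more the values were Rgs5 0. With 1 library left out, the ranges were Cd74 -0.35 to 0.09, Cd81 -0.26 to 0.11, Icam1 -0.18 to 0.13, Id2 -0.14 to 0.23, Nfkbia -0.09 to 0.02, Rgs5 -0.17 to 0.18, Wif1 -1.08 to 0.4. Between 25 and 110 members a library limit what genes of low level can show. So do the smaller classes set against them, 16 to 50 Madcam1+ Cr2-negative cells and 10 to 35 Cr2+ barcodes with little Malat1.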
